A study of Mus musculus with 6 samples.

Results

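The genes of glutathione metabolism, the thioredoxin system and the enzymes that remove superoxide and hydrogen peroxide were followed in the pancreas of mice that lack OCaR1. A list of 47 genes was looked up by symbol among the tested rows of the authors' gene table, and 46 were found. The member without a row was Nqo1, the quinone reductase gene, which was not analysed here. The whole table holds 12016 genes, of which 11478 were tested by the authors.

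RNA of the whole pancreas was sequenced from 3 male wild-type mice and 3 male OCaR1-/- mice, all aged 3 weeks and untreated. The labels spell the strain C57Bl6/N in the protocol and C56Bl6/N in the strain field, for both genotypes. The labels do not say how the OCaR1-/- allele was made or whether the controls were littermates. The authors' table gives 1 FPKM value per genotype (sequenced fragments divided by transcript length and by library size). Each value pools 3 mice, and the levels below therefore carry neither an SD nor an interval. The words called, rose and fell are kept for genes with a q-value under 0.05 in the authors' Cuffdiff test. Pairs of levels give the knockout before wild type, "from" and "to" run from wild type to knockout, and log2 ratios are knockout over wild type.

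Glutathione is a small thiol made from glutamate, cysteine and glycine. Peroxidases use it to reduce hydrogen peroxide and lipid peroxides, and transferases attach it to reactive compounds. Thioredoxin and the peroxiredoxins form a parallel system of protein thiols. Many of these genes are targets of the transcription factor Nrf2 (encoded by Nfe2l2), which binds antioxidant response elements and is held back by Keap1. Acinar cells, the enzyme-producing cells that form most of the pancreas, fold large amounts of disulfide-bonded protein, a process that yields hydrogen peroxide in the endoplasmic reticulum.

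Of the 46 members, 2 were called and both were lower in the knockout: Txnip, which encodes an inhibitor of thioredoxin, and Gclc, which encodes the catalytic subunit of the rate-limiting enzyme of glutathione synthesis. None was called higher. Over all tested genes the authors' deposited table called 7.54%, with 3.35% lower and 4.20% higher, so the share of members called (4.35%) was not above that of the table. At an unadjusted p under 0.05, 8 of 46 members were lower and 1 of 46 was higher. Over all tested genes these were 9.11% (1046 of 11478) and 8.36% (960 of 11478). The members' share was thus above that of the table for lower values and below it for higher ones. Among members that reached 5 FPKM in a group, 2 of 39 were called, beside 8.53% of all such genes. The median log2 ratio of the members was -0.05, beside -0.03 for all tested genes.

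Most members lay close to wild type. The log2 ratios of the members had an interquartile range of 0.34 (0.35 over all tested genes), and 76.1% of them lay within 1.2-fold of wild type (65.8% over all tested genes, 69.2% over those that reached 5 FPKM in a group). Txnip was the 1 member past 1.5-fold. Without Txnip and Gclc the remaining 44 ran from -0.38 to 0.42. In these bulk samples fewer cells of a type and less RNA per cell cannot be told apart.

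**Figure D1:**
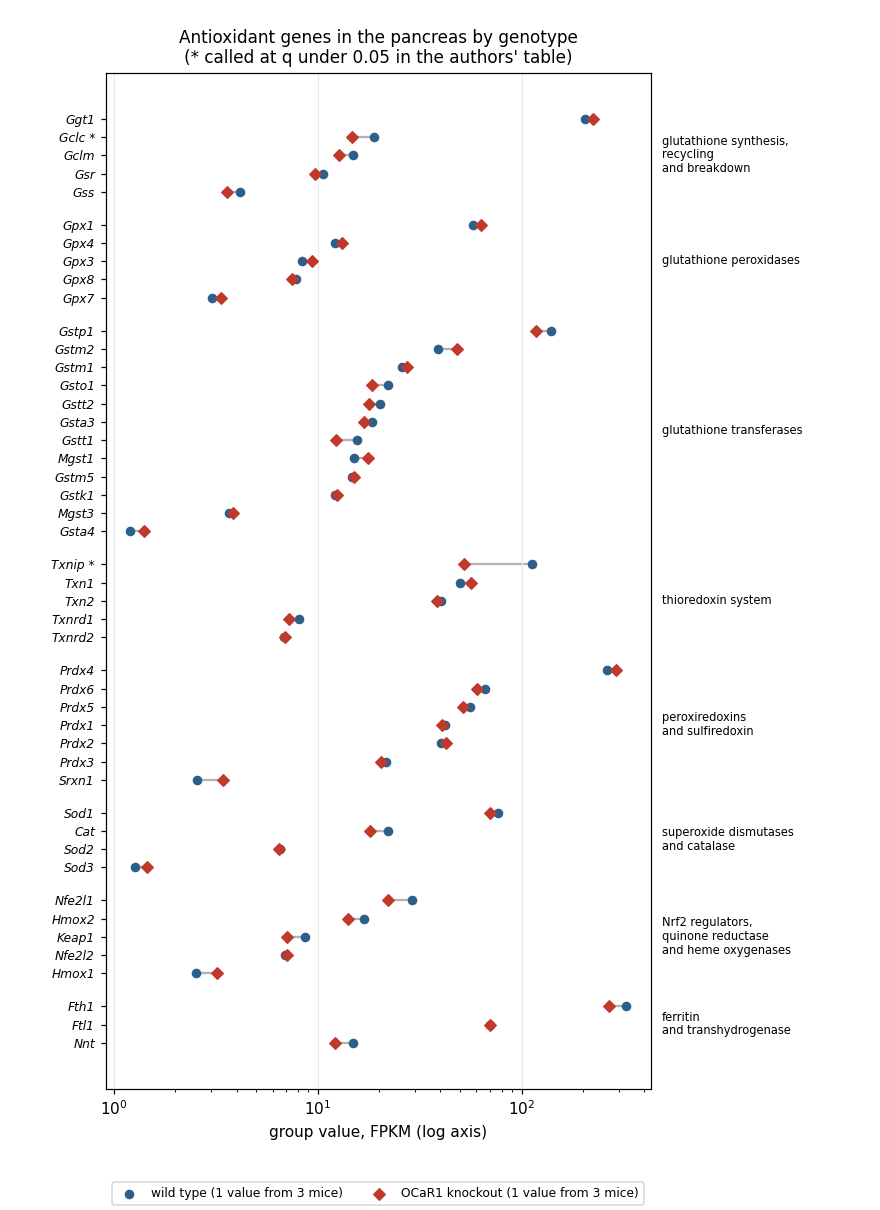
Group values of the 46 tested members in FPKM (log axis), grouped by role and ordered by the wild-type value; circles are wild type, diamonds the knockout, each 1 value that combines 3 mice, with no error bar. The pairs nearly coincide for most genes, and the wide gap is that of Txnip, at 52.4 and 113 FPKM.

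The targeted gene and the markers of other cells set the frame for these values. Tmem63a, which is known to encode OCaR1, had 4.91 and 18.3 FPKM (q = 0.00152 in the authors' deposited table). The acinar markers were the most abundant of the marker lists, with summed levels of 178248 and 176498 FPKM, and 2 of 10 tested were called, both lower. Summed macrophage markers stood at 137 and 78.8 FPKM (11 of 14 called, all higher), fat cell markers at 217 and 106 FPKM (7 of 10, all higher), and islet markers at 4139 and 2581 FPKM (12 of 15, all higher). Fibroblast and stellate cell markers summed to 481 and 368 FPKM (5 of 10 called, all higher), endothelial markers to 60.1 and 47.2 FPKM (4 of 8, all higher) and red cell markers to 448 and 384 FPKM (2 of 5, all higher). Duct markers summed to 237 and 219 FPKM (1 of 6, higher) and the 2 tested neutrophil markers to 5.14 and 3.06 FPKM (0 called by Cuffdiff, 2 at an unadjusted p under 0.05). Smooth muscle markers went the other way, at 27.6 and 64.1 FPKM (5 of 6, all lower), and of 3 liver and intestine markers 1 was called, lower. Over all tested genes 4.20% were called higher and 3.35% lower. No tested marker was listed at 0, and the part of these cell types in the members' values was not tested.

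Txnip was the member with the widest difference. Its product binds reduced thioredoxin and blocks it, and as a member of the arrestin family it also lowers glucose uptake. Its transcript is known to rise with glucose through the factors MondoA and ChREBP, which bind a carbohydrate response element in its promoter. Txnip (ENSMUSG00000038393, protein-coding, plus strand) had 52.4 FPKM without OCaR1 and 113 FPKM with it, a 2.15-fold lower level, with q = 0.00152 in the authors' deposited table. Its p of 5e-05 is the smallest in the table and is shared by 394 genes. Without the spread between mice, whether single animals overlapped cannot be read from these data.

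GENCODE release M21 (build GRCm38) places Txnip on chromosome 3 from 96557957 to 96561883. The interval in the authors' table is wider, from 96555765 to 96566801, which is the extent that GENCODE gives to Gm15441, an antisense RNA gene on the opposite strand. Gm15441 has no row of its own among those analysed here. The labels do not say whether counting used strand, so reads of Txnip and of Gm15441 cannot be told apart.

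The Txnip promoter is shown because it holds the glucose-responsive element through which this called member is known to be controlled. The window runs from 250 bases before to 50 bases after the RefSeq start site (GRCm38.p6, chr3:96557707-96558006, plus strand). Capitals mark the carbohydrate response element, searched as CACGNG, then any NNNNN, then CACGNG, which begins at position -85 from the start site.
Txnip: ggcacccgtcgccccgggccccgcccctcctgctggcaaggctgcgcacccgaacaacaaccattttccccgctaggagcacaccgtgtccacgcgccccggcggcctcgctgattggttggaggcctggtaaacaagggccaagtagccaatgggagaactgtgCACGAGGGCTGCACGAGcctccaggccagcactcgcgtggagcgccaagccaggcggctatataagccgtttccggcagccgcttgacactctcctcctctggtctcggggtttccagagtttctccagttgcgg

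These letters, searched on both strands, occurred in 16 of 32851 RefSeq promoter windows of the same length (0.0487%), and among the 38 members with a window only in that of Txnip. The plain E-box CACGTG was in 7.15% of all windows and in those of 2 members, Ggt1 and Prdx4. A match of letters describes the window and does not show that a factor was bound in these samples.

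The remaining members of the thioredoxin system were not called. Thioredoxin itself, the cytosolic Txn1, stood at 56.3 and 49.7 FPKM (q = 0.362 in the authors' deposited table), and the mitochondrial Txn2 at 38.6 and 40.2 FPKM. The thioredoxin reductases, selenoenzymes that recharge thioredoxin with NADPH, were lower in abundance. Cytosolic Txnrd1 had 7.24 and 8.10 FPKM, and mitochondrial Txnrd2, in an interval shared with other rows, had 6.87 and 6.81 FPKM. In wild type the inhibitor transcript Txnip was thus above the thioredoxin transcript Txn1 in FPKM, and in the knockout it was slightly below it.

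**Figure D2:**
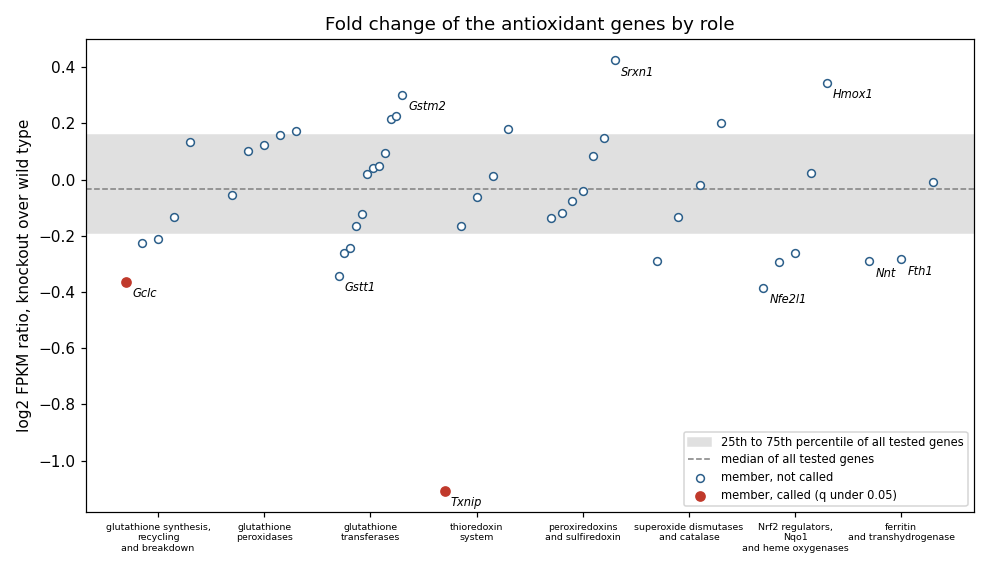
Log2 FPKM ratio (knockout over wild type) of each tested member by role; filled points passed q under 0.05 in the authors' table, open points did not, the grey band spans the 25th to the 75th percentile of all tested genes and the dashed line is their median. Txnip (-1.11) and Gclc (-0.36) are the filled points; Srxn1 (0.42) and Hmox1 (0.34) are the highest open points.

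Glutathione synthesis held the other call. Gclc (ENSMUSG00000032350, protein-coding, GRCm38 chromosome 9, 77754535 to 77794485, plus strand) had 14.7 and 18.9 FPKM, and the knockout value was 77.7% of the other. The authors' deposited table gives it q = 0.00283, at a log2 ratio of -0.36. The modifier subunit gene Gclm, whose product raises the activity of Gclc, had 12.7 and 14.8 FPKM (q = 0.719), and the glutathione synthetase gene Gss, the second enzyme of the path, 3.59 and 4.16 FPKM (q = 0.781). Both share their interval with another gene, Dnttip2 and Acss2. Glutathione reductase (Gsr), which returns oxidised glutathione to the reduced form, had 9.70 and 10.6 FPKM.

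These 4 genes of synthesis and recycling all had negative log2 ratios, from -0.36 to -0.13, of which that of Gclc was called. Ggt1, which encodes the cell-surface enzyme that begins the breakdown of glutathione outside the cell, stood apart in level and sign. It was among the 4 most abundant members, at 224 and 204 FPKM (q = 0.674 in the authors' deposited table). In wild type its FPKM was 10.8 times that of Gclc.

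Of 5 glutathione peroxidase genes none was called by Cuffdiff, and 0 had an unadjusted p under 0.05. Over all tested genes these shares were 7.54% and 17.5%, from which counts among 5 genes cannot be set apart. The cytosolic Gpx1 was the most abundant, at 63.1 and 57.9 FPKM (q = 0.651 in the authors' deposited table). Gpx4, which reduces lipid peroxides in membranes and protects cells from ferroptosis, had 13.1 and 12.2 FPKM, and the secreted Gpx3 had 9.41 and 8.35 FPKM. The endoplasmic reticulum enzymes, which lack selenocysteine, were at 3.36 and 3.01 FPKM for Gpx7 and at 7.51 and 7.81 FPKM for Gpx8. The log2 ratios of the 5 lay between -0.06 and 0.17.

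The glutathione transferases were the largest group, with 12 tested members and no call by Cuffdiff, beside 7.54% of all tested genes. With 12 genes the absence of a call cannot be set apart from that share. At an unadjusted p under 0.05 there were 1 higher and 3 lower, beside 8.36% and 9.11% of all tested genes. Gstp1 was the most abundant of them, at 118 and 139 FPKM (q = 0.126 in the authors' deposited table). The mu class genes lie side by side on chromosome 3 and are close paralogs, so reads could be divided between them. Of these, Gstm2 came nearest to a call, at 48.0 and 38.9 FPKM (a ratio of 1.23, q = 0.0561), while Gstm1 had 27.5 and 25.8 FPKM and Gstm5, in an interval shared with another row, 15.0 and 14.8 FPKM.

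The theta and omega class genes had values below wild type without a call. Gstt1 stood at 12.3 and 15.6 FPKM (q = 0.198 in the authors' deposited table), Gsto1 at 18.5 and 22.1 FPKM (q = 0.180) and Gstt2 at 17.9 and 20.1 FPKM (q = 0.473). The alpha class gene Gsta3 had 16.9 and 18.4 FPKM, and Gsta4, whose product clears the lipid aldehyde hydroxynonenal, was the member with the lowest peak level, at 1.40 and 1.20 FPKM. The mitochondrial and peroxisomal Gstk1 had 12.5 and 12.1 FPKM, and the membrane-bound Mgst1 and Mgst3 had 17.7 and 15.1 FPKM and 3.82 and 3.69 FPKM. The transferases therefore lay on both sides of wild type, with log2 ratios from -0.34 to 0.30.

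The peroxiredoxins, abundant thiol peroxidases of different compartments, were near wild type throughout. Prdx4, the peroxiredoxin of the endoplasmic reticulum, was the second most abundant member in wild type and the most abundant in the knockout, at 290 and 262 FPKM (a ratio of 1.11, q = 0.507 in the authors' deposited table). The cytosolic Prdx1 had 40.9 and 42.0 FPKM, Prdx2, in an interval shared with Rnaseh2a, 42.5 and 40.1 FPKM, and Prdx6 60.4 and 66.3 FPKM. The mitochondrial Prdx3 had 20.5 and 21.6 FPKM, and Prdx5, whose interval is shared with 3 other rows, 51.3 and 55.7 FPKM. None of the 6 had a log2 ratio beyond 0.15 in either direction. Sulfiredoxin (Srxn1), which repairs overoxidised peroxiredoxins, had the highest log2 ratio of all members, 0.42, at 3.43 and 2.55 FPKM, and was not called (q = 0.683).

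Superoxide dismutases turn superoxide into hydrogen peroxide, and catalase splits hydrogen peroxide in peroxisomes. The cytosolic Sod1 stood at 70.0 and 76.7 FPKM, the mitochondrial Sod2 at 6.45 and 6.53 FPKM and the extracellular Sod3 at 1.45 and 1.26 FPKM. Catalase (Cat) had 18.1 and 22.1 FPKM, with an unadjusted p of 0.0394 and q = 0.246 in the authors' deposited table. None of the 4 was called by Cuffdiff, and Cat was the 1 with an unadjusted p under 0.05. Over all tested genes 7.54% were called and 17.5% had such a p, from which counts among 4 genes cannot be set apart.

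The regulators of the response were not called either. Nfe2l2, the gene of Nrf2, had 7.03 and 6.92 FPKM (q = 0.970 in the authors' deposited table). Keap1, its inhibitor, had 7.03 and 8.61 FPKM (q = 0.299), and Nfe2l1, whose product Nrf1 is a related factor of the endoplasmic reticulum, 22.1 and 28.9 FPKM (1.31-fold lower, q = 0.363). The log2 ratio of Nfe2l1 (-0.38) was below that of Gclc, which was called.

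The heme oxygenases release iron from heme. The inducible Hmox1, which macrophages that clear red cells express strongly, had 3.20 and 2.52 FPKM (q = 0.432 in the authors' deposited table), and the constitutive Hmox2, in an interval shared with Cdip1, had 14.1 and 16.9 FPKM. Macrophage markers were higher in the same group, with a median log2 ratio of 0.78, and their part in the Hmox1 values was not tested.

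Ferritin, which stores iron in a form that cannot feed radical reactions, gave the most abundant member in wild type. The heavy chain gene Fth1 stood at 268 and 327 FPKM and came close to the threshold (log2 ratio -0.28, q = 0.0533 in the authors' deposited table), while the light chain gene Ftl1, in an interval shared with another row, had 69.9 and 70.3 FPKM (q = 0.988). Ferritin genes have many processed copies in the genome, and how reads that map to several places were handled is not stated in the labels. Nnt, the mitochondrial enzyme that makes NADPH from NADH, had 12.2 and 14.9 FPKM and also just missed the threshold (q = 0.0561).

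The 4 most abundant members in wild type, Fth1, Prdx4, Ggt1 and Gstp1, accounted for 47.6% of the members' total FPKM there and 48.9% in the knockout. All 46 members together summed to 1840 FPKM without OCaR1 and 1959 FPKM with it. This is 0.272% and 0.299% of the FPKM of the whole table. The widest differences in FPKM were those of Txnip (52.4 and 113) and Fth1 (268 and 327, not called). Without Txnip and Gclc the sums were 1773 and 1828 FPKM, so the totals do not describe a lower level across the members. Members had levels from 1.20 to 327 FPKM in wild type, and 39 had at least 5 FPKM in either group.

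**Figure D3:**
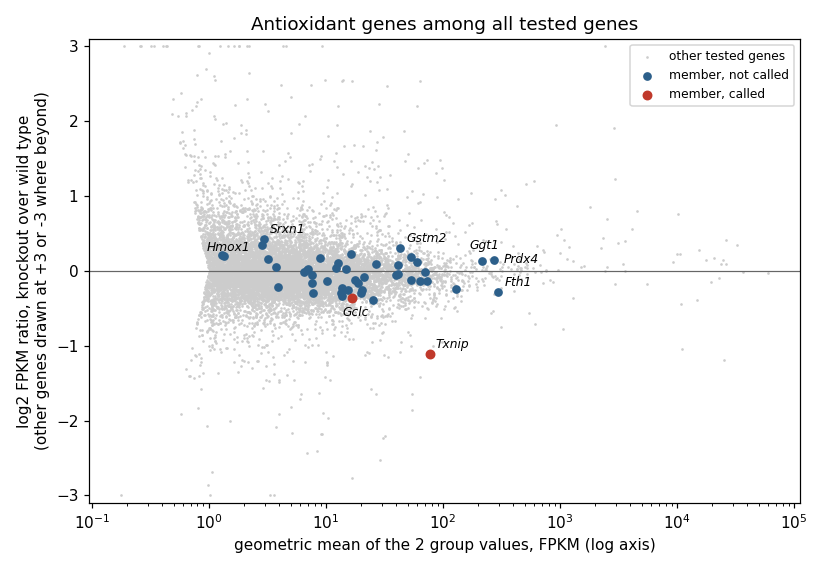
Log2 FPKM ratio (knockout over wild type) of every tested gene with a fold change (grey; drawn at +3 or -3 where beyond) and of the members (blue not called, red called) against the geometric mean of both group values in FPKM (log axis). The members sit in the middle of the cloud over their whole range of levels, and Txnip lies below the others at -1.11.

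Antioxidant response elements are the sites through which Nrf2 acts on many of these genes. The core letters TGACNNNGC, searched on both strands, were in 12 of 55 promoter windows of members (21.8%), beside 12.4% of all 32851 windows; genes with several start sites have several windows. The longer form TGANTCAGC, which overlaps the core where its open base is C, was in 5.45% of the members' windows and 1.19% of all. The 10 members with the core were Gclm, Ggt1, Gsta3, Gstm5, Mgst1, Nfe2l2, Prdx1, Sod1, Srxn1 and Txnrd1. None of the 10 was called by Cuffdiff, beside 7.54% of all tested genes, and none had an unadjusted p under 0.05, beside 17.5%. With 10 genes these counts are too few to be set apart from those shares. The log2 ratios of the 10 ran from -0.23 to 0.42 with a median of -0.01. Gclc has no entry in the promoter table used.

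The matches are shown for 5 genes that are widely used as readouts of Nrf2. They were picked after their values were seen, because none of them was called here. The choice leaves out Gclc, which was called lower (log2 ratio -0.36), and Hmox1, which was not called (0.34). The 5 genes therefore do not stand for all readouts of Nrf2. Each line is read on the strand of the gene (GRCm38.p6) with the match in capitals. The matches of Gclm (chr3:122245407-122245447), Txnrd1 (chr10:82859098-82859138) and Prdx1 (chr4:116685450-116685490) read TGACNNNGC on the opposite strand. Those of Srxn1 (chr2:152105463-152105503) and Gstp1 (chr19:4037962-4038002) read TGANTCAGC on the gene's strand. The Gstp1 gene lies on the minus strand and the other 4 on the plus strand.
Gclm: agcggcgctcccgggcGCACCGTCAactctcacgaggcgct
Txnrd1: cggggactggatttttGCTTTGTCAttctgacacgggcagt
Prdx1: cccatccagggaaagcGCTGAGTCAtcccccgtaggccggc
Srxn1: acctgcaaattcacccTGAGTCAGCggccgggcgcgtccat
Gstp1: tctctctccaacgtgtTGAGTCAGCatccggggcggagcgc

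The log2 ratios of these 5 genes were -0.23 for Gclm, -0.16 for Txnrd1, -0.04 for Prdx1, 0.42 for Srxn1 and -0.25 for Gstp1. Among these 5 picked genes only Srxn1 was above wild type. Gstp1 had an unadjusted p of 0.01355 in the authors' Cuffdiff test (q = 0.126).

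Other genes of glutathione and redox metabolism were described by list. The lists were chosen with earlier results of these data known. The share called in a list, here and below, is therefore a description and not a test of the list. Of 8 tested genes of cystine supply and transsulfuration the authors' deposited table called 3, all lower, beside 3.35% of all tested genes called lower. Slc7a11 encodes xCT, the light chain of a cystine importer, and Slc3a2 its heavy chain, and q was 0.00152 for each in that table. Slc7a11 had 1.11 and 2.83 FPKM (2.55-fold lower) and Slc3a2 had 56.0 and 77.8 FPKM (1.39-fold lower). Cth, which releases cysteine from cystathionine, had 28.8 and 44.0 FPKM (1.52-fold lower, q = 0.00152). Cbs, the enzyme gene before it in the path, had 191 and 210 FPKM without a call (q = 0.828). The list median was -0.15.

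Among 18 tested other glutathione enzyme genes 1 was called (5.56%, beside 7.54% of all tested genes). It was Chac1, whose product degrades glutathione inside the cell (31.6 and 61.3 FPKM, 1.94-fold lower, q = 0.00152 in the authors' deposited table). Its constitutive relative Chac2 had 8.41 and 10.1 FPKM (q = 0.422). Slc7a11, Slc3a2, Cth and Chac1 are known targets of the stress factor ATF4 as well, and Slc7a11 also of Nrf2. These genes were grouped after their values were seen. The part of either factor in these values was not tested.

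Genes of the supply of NADPH, the source of electrons for both thiol systems, were called in both directions. Of 16 tested, 2 were called higher and 1 lower (18.75%, beside 7.54% of all tested genes). Me1, the cytosolic malic enzyme gene, rose from 0.709 to 2.78 FPKM (3.92-fold) and Aldh1l1, a folate enzyme gene, from 7.78 to 13.04 FPKM (1.68-fold). Nadk2, the mitochondrial NAD kinase gene, fell from 8.99 to 5.86 FPKM (q = 0.0462, the authors' deposited table). In the same group fat cell markers were higher (median log2 ratio 0.99), and their part in the values of Me1, a gene that fat cells express, was not tested.

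Of 8 tested genes of methionine sulfoxide and oxidised nucleotide repair 1 was called (12.5%, beside 7.54% of all tested genes). It was Msra, which reduces oxidised methionine (5.59 and 7.62 FPKM, 1.36-fold lower, q = 0.00523 in the authors' deposited table). Of 15 genes of other selenoproteins and their synthesis 1 was called (6.67%). It was Msrb1, which reduces the mirror form of oxidised methionine (117 and 147 FPKM, 1.26-fold lower, q = 0.0131). The other methionine sulfoxide reductase genes were not called: Msrb2 had 5.42 and 5.08 FPKM (q = 0.961) and Msrb3 had 1.30 and 1.21 FPKM (q = 0.910). Txnrd3, a thioredoxin reductase with a glutaredoxin domain, was the 1 call of 18 glutaredoxin and thioredoxin-like genes (5.56%). It had 1.09 and 1.75 FPKM (1.60-fold lower). With 1 call per list these counts are too few to be set apart from the share over all tested genes.

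Oxidative protein folding in the endoplasmic reticulum held no call by Cuffdiff among 15 tested genes, beside 7.54% of all tested genes. At an unadjusted p under 0.05 there was 1 higher (8.36% over all tested genes), and the list median was -0.10. The disulfide isomerase gene P4hb had 832 and 923 FPKM (q = 0.799 in the authors' deposited table) and the oxidase gene Ero1lb, whose product passes electrons from new disulfides to oxygen, 63.6 and 72.3 FPKM (q = 0.332). Iron uptake and export genes held no call among 12 either. At an unadjusted p under 0.05 there were 1 higher and 1 lower, beside 8.36% and 9.11% of all tested genes. With lists of this size these counts are too few to be set apart from those shares. The transferrin receptor gene Tfrc stood at 9.95 and 6.08 FPKM (q = 0.167).

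Of 17 tested other Nrf2 targets 2 fell (11.8%, beside 7.54% of all tested genes called), both aldehyde dehydrogenase genes. With lists of this size such counts are too few to be set apart from that share. Aldh9a1 had 17.1 and 26.7 FPKM (1.56-fold lower) and Aldh3a2 had 11.9 and 16.6 FPKM (1.40-fold lower, q = 0.0390 in the authors' deposited table). Aldh9a1 lies on chromosome 1 beside the member Mgst3, which was not called and lies 13.5 Mb from Tmem63a. Of 14 tested Nrf2 partners, repressors and sestrins 2 were called (14.3%, beside the same 7.54%). Sesn1 rose from 13.1 to 18.6 FPKM (1.42-fold) and Sesn2 fell from 3.39 to 2.21 FPKM (1.53-fold).

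The list of superoxide and hydrogen peroxide sources also holds the Sod1 copper chaperone gene Ccs. Of its 10 tested genes 1 was called (10.0%, beside 7.54% of all tested genes). It was Xdh, the xanthine dehydrogenase gene, which rose from 1.43 to 3.22 FPKM (2.25-fold). The phagocyte oxidase gene Cybb had 2.22 and 1.02 FPKM (q = 0.104 in the authors' deposited table) and its cofactor gene Ncf1 1.31 and 0.743 FPKM (q = 0.153). Macrophage markers moved with these values, at summed levels of 137 and 78.8 FPKM, and their part was not tested. Over all 11 lists of such genes 151 were tested, and 4 were called higher and 11 lower. This was 9.93%, beside 7.54% of all tested genes, and is a description, since the lists were chosen with earlier results known.

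**Figure D4:**
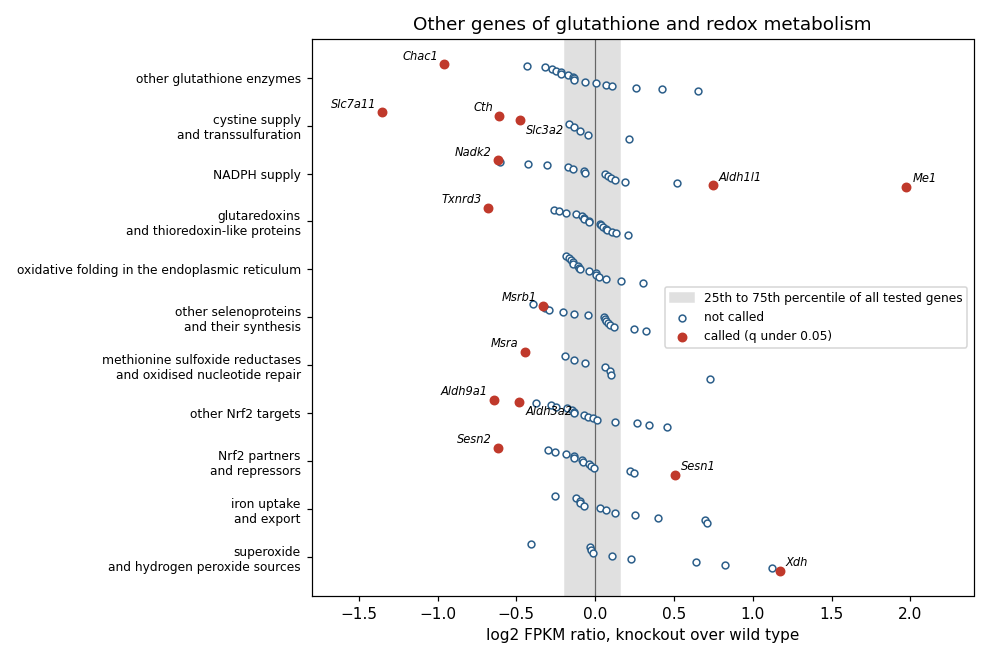
Log2 FPKM ratio (knockout over wild type) of the other tested genes of glutathione and redox metabolism, 1 row of points per list; filled points passed q under 0.05 in the authors' table and carry their names, and the grey band spans the 25th to the 75th percentile of all tested genes. Filled points lie to the left for cystine supply (Slc7a11, Cth, Slc3a2) and on both sides for NADPH supply.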

How the data were processed

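The submitters' processing notes list build GRCm38 and the tools STAR (2.5.1b), Cuffdiff and Cufflinks (2.2.1); per the labels' protocols, poly(A)-selected RNA was sequenced as single reads of 50 bases. Annotation release, strand use, multi-mapping and dispersion settings are not given in these sources. The authors deposited 1 FPKM value per genotype and, per the file headers, a p-value and q-value per gene; every row reaches 1.00006 FPKM in at least 1 group. Depth is unknown, so no interval or floor is given. The columns of single samples numbered 0.

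Log2 ratios were recomputed from the deposited FPKM without a pseudocount (Python 3.11.15, pandas 2.3.3, numpy 2.4.6); values under 0.01 FPKM counted as listed at 0, which left 37 tested genes, none a member, without a ratio. The planned test per library could not be made, so the deposited q was used. Ratio and adjustment code was tested on simulated data. Rows called not tested (538) were left out. Among the tested members, 8 share their interval with another row, and all 46 were found in GENCODE M21 by identifier. Promoter windows come from RefSeq (GRCm38.p6). Members and lists were chosen with earlier results of these data known, and the motifs and printed sequences after the values were seen. All tested members were named, and of each other list the called genes, with a few uncalled ones for comparison that were chosen after their values were seen. Alternatives changed the q threshold, the adjustment, the pseudocount, a filter at 5 FPKM, the scaling and the use of shared intervals. Whether the 3 mice of a group came from separate litters is not stated in the labels.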

Additional observations from a re-analysis of the deposited data

How the results depend on the processing

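The 2 calls among the members, both lower, were the count also at q under 0.01 and after Benjamini-Hochberg adjustment over every tested gene. They were the count too for members that reached 5 FPKM in a group (39) and for the 38 whose interval no other row shares. That last setting compares rows only, so it kept Txnip, whose interval also spans Gm15441, a gene without a row. It also kept Gsto1 and Gpx8, whose intervals overlap 5 and 6 other GENCODE genes. At q under 0.1 there were 5 calls, 1 higher and 4 lower, since Fth1, Gstm2 and Nnt were added. The members' median log2 ratio was -0.05 as deposited and -0.11 when FPKM was rescaled to the sum outside the acinar markers. This shifted every gene by -0.06, and the median over all tested genes went from -0.03 to -0.09. The split above and below wild type changed from 20 and 26 to 15 and 31 members. The 5 members that changed sign under the rescaling were not called. The listed acinar markers held 26.3% of all FPKM in the knockout and 26.9% in wild type, and the rescaling leaves out only these genes. The members' median lay between -0.08 and -0.02 under the other settings, and a pseudocount of 0.5 changed the sign of 0 members. Calls among the other genes of the pathway numbered 15, and between 10 and 17 under the alternatives. No paired analysis was possible because the table holds 1 value per genotype; for the same reason leaving out a mouse was not run. The missing spread between mice limits every value here: a member that was not called is not shown to be unchanged.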

Other observations

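The relatives of Txnip and the glucose-sensing factors that act on it were looked up after its value was seen. Among the other arrestin-domain genes, Arrdc4, which carries a carbohydrate response element as well, had 3.01 and 3.23 FPKM (knockout first; q = 0.922 in the authors' deposited table). Arrdc3 had 5.29 and 5.69 FPKM, Arrdc1 6.33 and 6.62 FPKM and Arrdc2 1.98 and 1.62 FPKM, all without a call. The gene of ChREBP, Mlxipl, had 2.97 and 2.22 FPKM (q = 0.499) and that of MondoA, Mlxip, 4.82 and 4.87 FPKM (q = 0.976). None of these 4 relatives was called, beside 7.54% of all tested genes. A gene that was not called is not shown to be unchanged, and a link of these genes with the Txnip values was not tested.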
